A study of Homo sapiens with 21 samples.

Results

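The 40 genes described here encode proteins used as markers of neurons and synapses: neurofilament subunits, microtubule proteins, granins, synaptic vesicle proteins, adhesion molecules, RNA-binding proteins of the ELAV family, and a few enzymes and scaffolds. They were chosen by name, without reference to a threshold but with earlier results of these data known. A list of gene symbols was matched to the Ensembl identifiers in the count tables. Each of the 40 symbols matched 1 identifier, of 57500 genes counted. RNA had been sequenced from xenografts of HT1376, an established human bladder carcinoma cell line, grown in female CB17 SCID mice, an immunodeficient strain whose own stroma, vessels and innate immune cells remain in the tumour. The 21 libraries fall into 7 groups of 3. Of these, 1 group received vehicle, and the other groups received CPI-0209, Valemetostat, MAK683, tazemetostat, PF-06821497 or CPI-1205, each at 75 mg/kg by mouth once a day. Mice entered at 6 to 8 weeks of age, dosing began 11 to 15 days after implantation at mean tumour volumes between 139 and 160 mm3, and tumours were collected 1 hour after dosing on day 15. Each tumour derives from the same cell line. Whether the 3 libraries of a group are from separate animals is not stated, and the p-values therefore describe only the spread between libraries, which may be technical in part. Doses were matched by weight, and exposure or inhibition of the target was not analysed here.

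All 6 compounds act on Polycomb repressive complex 2 (PRC2), which methylates histone H3 at lysine 27 through its catalytic subunit EZH2 or EZH1 and keeps many developmental genes silent. MAK683 binds EED, the subunit that recognises the methylated histone tail, whereas the others inhibit the catalytic subunit. Many neuronal genes are Polycomb targets in non-neuronal tissue, and many are also repressed there by REST, a zinc finger factor that binds the RE1 element and recruits corepressors. A urothelial carcinoma is an epithelial tumour, and some genes on the list, such as the glycolytic enzyme ENO2 and the adhesion molecule L1CAM, are known to be expressed by carcinoma cells without a neuronal programme.

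Library totals ran from 9725690 counts in CPI-0209 library 3, the shallowest, to 25771778 counts, and 31834 to 35733 genes had at least 1 count. Levels are given as counts scaled to a fixed library total (CPM) after TMM scaling, and differences as log2 fold changes from edgeR with a quasi-likelihood test. A gene was tested where at least 3 libraries reached about 0.46 CPM, which corresponds to 10 counts in a library of median size, and called where the adjusted p was under 0.05. In all, 21958 genes were tested. Of the 40 neuronal genes, 31 entered the test. The other 9 (NEFL, NEFH, INA, STMN4, GAP43, SCG3, DCX, CPLX2 and CNTN1) had between 4 and 84 counts summed over the 21 libraries. Only 16 of the 31 reached the filter in the vehicle libraries alone. The remaining 15 were tested because a treated group brought them over it, so their differences are descriptions of how they entered, and counts that include them are not support for a direction. These 15 are UCHL1, NEFM, STMN2, MAPT, ELAVL3, ELAVL4, CHGB, SCG2, SCG5, SNAP25, SYN1, SYN2, CNTNAP2, NLGN1 and GAD1, and their p-values below are given with that limit.

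In vehicle tumours the levels per kilobase of exon spanned a wide range. ENO2 stood highest at 12.4 CPM per kb, followed by the presynaptic adhesion receptor NRXN2 at 9.06 and L1CAM at 7.22 CPM per kb. CHGA, a core protein of dense-core secretory granules, was next at 2.55 CPM per kb, then the calcium sensor of vesicle fusion SYT1 at 1.74, STMN3 at 1.56 and VGF at 1.53 CPM per kb. Among the tested members ELAVL4 was lowest, at 0.00223 CPM per kb, and of the untested ones NEFL was at 0 and CPLX2 at 0.00197 CPM per kb. Summed over the 40 genes, vehicle libraries held 253 to 298 CPM, and most of it was ENO2, NRXN2 and L1CAM.

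With CPI-0209, the granin CHGA, the stathmin STMN3, the tubulins TUBB3 and TUBB2B, the adhesion molecule NCAM1, the synaptic scaffold DLG4 and the granin VGF rose among the neuronal genes already measurable in vehicle tumours, whereas ENO2 and MAP2 fell and 7 synaptic and adhesion genes were not called. Over the 31 tested members, edgeR called 22 higher with CPI-0209 (71.0%), beside 22.3% of all genes tested, and 2 lower, beside 18.8% of all genes. With Valemetostat 16 were called higher (51.6%, background 15.0%), with MAK683 12 (38.7%, background 10.4%) and with PF-06821497 8 (25.8%, background 5.96%). None of the 31 was called lower by edgeR in these 3 comparisons, beside 12.2%, 5.17% and 3.59% of all genes. These counts hold the 15 members admitted by treated libraries, so the shares are not compared with the background. In tazemetostat and CPI-1205 tumours edgeR called 0 members and 0 of all genes (0%). At an unadjusted p under 0.05, 4 of 31 members were reached with tazemetostat (2.95% of all genes) and 2 of 31 with CPI-1205 (12.4%), and DESeq2 and limma-voom called 0 members in both. These 6 comparisons share the vehicle libraries, so they are not independent of each other. In RNA from whole tumours, fewer cells of a type and less RNA per cell cannot be told apart.

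**Figure D1:**
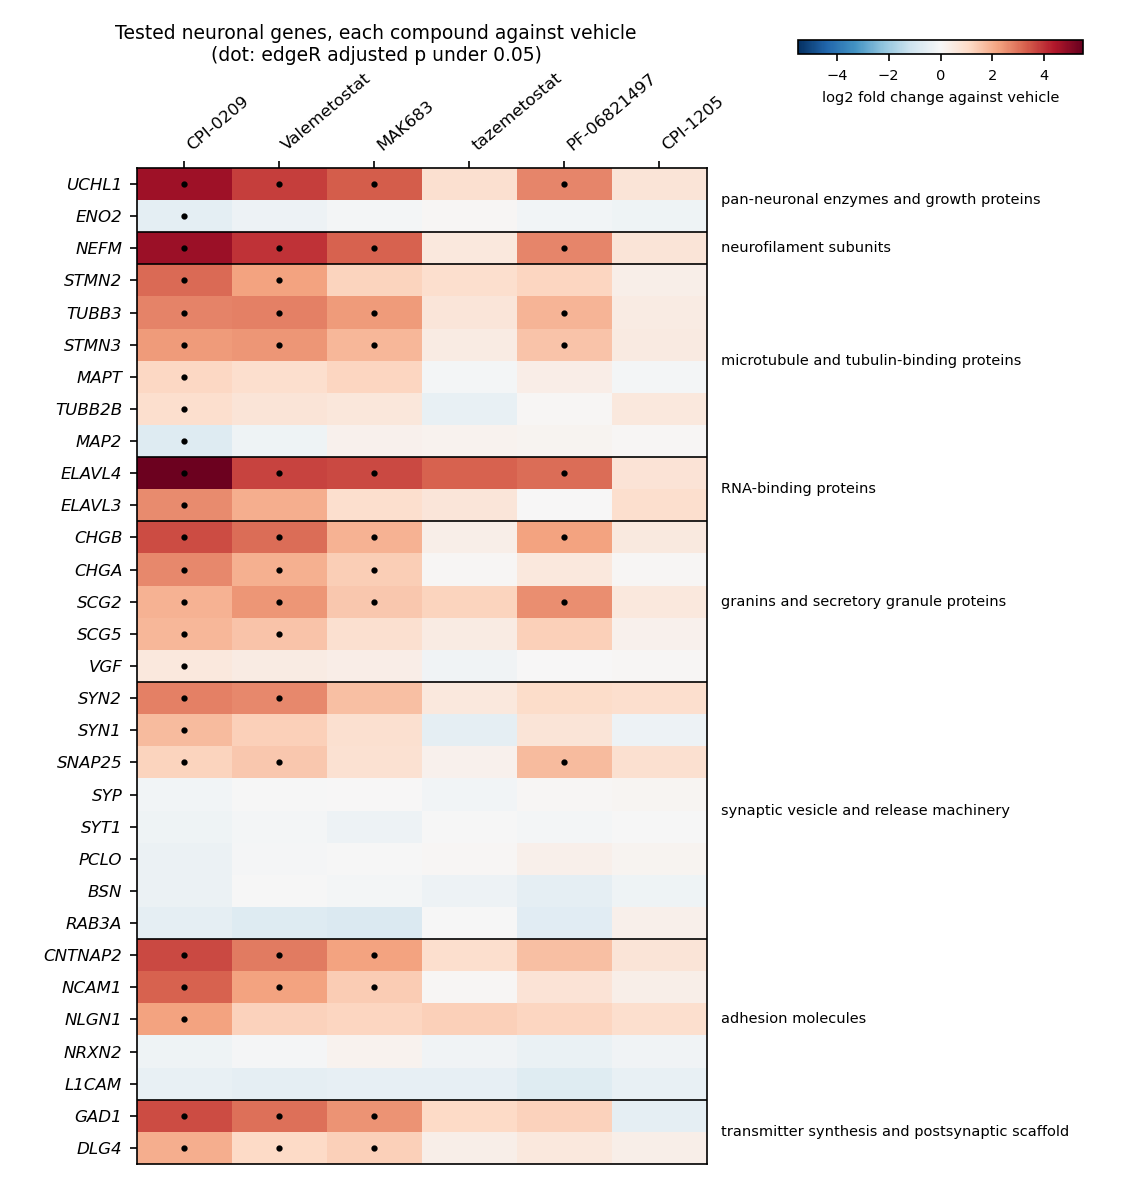
Log2 differences from vehicle for the 31 tested members (rows, ordered by role) and the 6 compounds (columns), with the colour bar giving the edgeR log2 fold change and a mark for adjusted p under 0.05. UCHL1, NEFM and ELAVL4 reach 4.64, 4.72 and 5.40 with CPI-0209, whereas ENO2 and MAP2 are below 0 there.

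The 16 members that reached the filter in vehicle alone could be counted in both directions. Since the list was chosen with earlier results of these data known, the shares are descriptions. With CPI-0209, 7 of these 16 rose (43.8%) and 2 fell (12.5%), beside 14.9% higher and 23.9% lower among the 16981 genes that passed in the same way. With Valemetostat 5 of 16 rose (31.2%, beside 10.8%), and with MAK683 5 of 16 rose (31.2%, beside 7.53%). With PF-06821497 2 of 16 rose (12.5%, beside 5.09%), and these were STMN3 and TUBB3. The median difference of the 16 was -0.18 with CPI-0209, -0.02 with Valemetostat, 0.21 with MAK683 and 0.06 with PF-06821497, beside -0.12, -0.08, -0.06 and -0.04 over the 16981 genes. With CPI-0209, 7 of the 16 (SYT1, SYP, PCLO, BSN, RAB3A, NRXN2 and L1CAM) were not called and had estimates below 0. Among the 15 members below the filter in vehicle, all 15 were called higher with CPI-0209, beside 47.5% of the 4977 genes that entered in that way, but this group was tested because of such libraries.

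**Figure D2:**
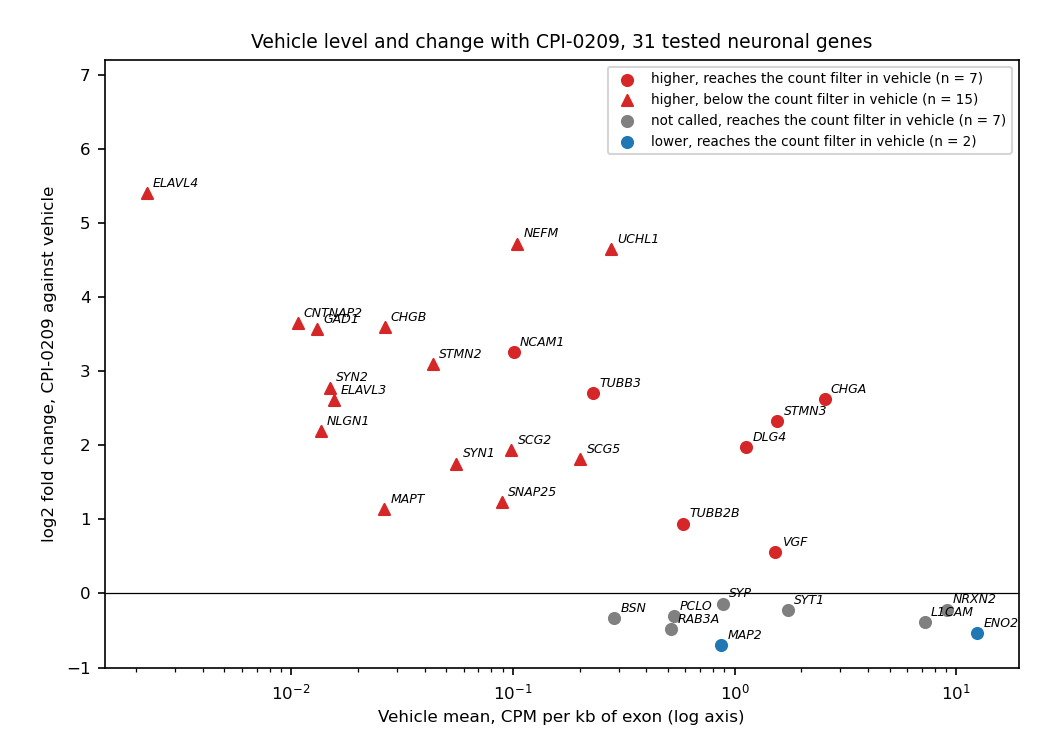
Mean vehicle level (x axis, CPM per kb of exon, log scale) against the log2 difference with CPI-0209 (y axis) for the 31 tested members, 1 point per gene, coloured by call, with circles for the 16 genes that reached the filter in vehicle alone and triangles for the other 15. ELAVL4, NEFM and UCHL1 are highest on the y axis and are triangles, whereas NRXN2, L1CAM and ENO2, at 9.06, 7.22 and 12.4 CPM per kb, lie below 0.

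**Figure D3:**
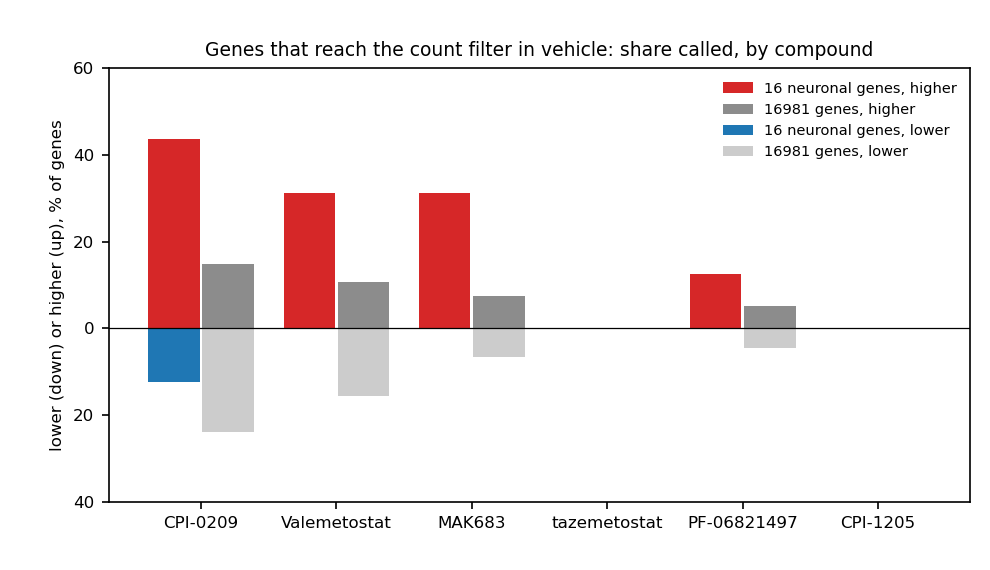
Share of genes (y axis, percent) called higher (upward bars) and lower (downward bars) against vehicle with each compound, for the 16 neuronal genes and the 16981 genes of the whole table that reached the filter in vehicle libraries alone. With CPI-0209 the bars stand at 43.8% higher and 12.5% lower for the neuronal genes, beside 14.9% and 23.9% for the table.

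DNA before the start sites of these genes differs in its density of CpG dinucleotides, the sequence feature that marks promoters prone to Polycomb recruitment. The stretches printed here are for CHGA, STMN3 and SYN2, which rose with CPI-0209, and for SYP, PCLO and BSN, which were not called. SYN2 was tested only through treated libraries. They were taken from the RefSeq promoter table of build GRCh38.p14, up to 250 bases before the RefSeq start site and leaving out bases in any annotated exon, and are written 5′ to 3′ on the strand of the gene with each CpG in capitals. CHGA (chr14:92922900-92923079, plus strand) holds 12 CpG in 180 bases, STMN3 (chr20:63652767-63653016, minus strand) holds 28 in 250 bases, and SYN2 (chr3:12004138-12004387, plus strand) holds 27 in 250 bases.
CHGA: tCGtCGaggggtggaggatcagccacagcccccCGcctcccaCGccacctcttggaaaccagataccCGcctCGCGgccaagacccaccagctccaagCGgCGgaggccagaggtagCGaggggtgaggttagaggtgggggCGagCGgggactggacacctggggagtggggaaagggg
STMN3: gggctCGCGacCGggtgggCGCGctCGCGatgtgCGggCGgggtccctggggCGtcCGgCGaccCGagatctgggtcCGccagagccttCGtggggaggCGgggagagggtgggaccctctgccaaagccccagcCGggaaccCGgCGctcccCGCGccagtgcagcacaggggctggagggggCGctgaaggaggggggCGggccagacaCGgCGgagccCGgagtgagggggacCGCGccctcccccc
SYN2: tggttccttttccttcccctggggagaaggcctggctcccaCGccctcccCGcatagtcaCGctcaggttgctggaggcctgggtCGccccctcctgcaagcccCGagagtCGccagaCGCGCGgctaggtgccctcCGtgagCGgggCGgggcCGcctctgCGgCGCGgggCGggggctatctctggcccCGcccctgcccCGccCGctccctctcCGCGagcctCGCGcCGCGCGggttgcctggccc
The corresponding stretches of the members that were not called are SYP (chrX:49200260-49200443, minus strand) with 18 CpG in 184 bases, PCLO (chr7:83162931-83163134, minus strand) with 18 in 204 bases, and BSN (chr3:49554367-49554476, plus strand) with 17 in 110 bases.
SYP: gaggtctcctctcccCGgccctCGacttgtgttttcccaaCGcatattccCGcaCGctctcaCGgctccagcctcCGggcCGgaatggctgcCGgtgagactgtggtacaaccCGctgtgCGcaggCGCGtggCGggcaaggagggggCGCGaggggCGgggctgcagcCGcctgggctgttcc
PCLO: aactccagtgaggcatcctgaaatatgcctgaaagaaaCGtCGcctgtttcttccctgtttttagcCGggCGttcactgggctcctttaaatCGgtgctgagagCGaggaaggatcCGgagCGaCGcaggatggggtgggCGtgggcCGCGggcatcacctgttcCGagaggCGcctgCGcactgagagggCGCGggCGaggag
BSN: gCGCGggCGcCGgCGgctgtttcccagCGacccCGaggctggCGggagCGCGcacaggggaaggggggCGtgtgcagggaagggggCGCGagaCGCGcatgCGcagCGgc
Of the 6, BSN, which was not called, has the most CpG for its length, and CHGA, which rose, has the fewest. Of the 40 genes, 28 matched a RefSeq window of 300 bases (250 before and 50 after the start). An observed-to-expected CpG ratio of 0.6 or more was present in 17 of the 28 windows (60.7%), beside 48.9% of 35114 windows in the table. It was present in 10 of 14 windows of members that rose with CPI-0209 (71.4%), in 5 of 8 of members not called or lower (62.5%) and in 2 of 6 of untested members (33.3%). The median ratio was 0.71, 0.88 and 0.44 in that order, beside 0.58 over the windows of the table. Members that rose thus had the larger share but the smaller median beside those not called or lower. Those that rose include members tested only through treated libraries, whereas those not called or lower all reached the filter in vehicle. The split by call is therefore also a split by how genes entered the test, and is a description only. The left half-site of the RE1 element, CAGCACC, occurred on either strand in 4 of 28 windows (14.3%, beside 7.75% of the table), and the right half-site, GGACAG, in 10 (35.7%, beside 20.6%). Both in the spacing CAGCACCNNGGACAG, in which they overlap no other motif searched, occurred in 1 of 28 (3.57%, beside 0.0513%), that of SYN1 (chrX:47620074-47620088, minus strand, first base at -231 from the start), printed with flanking bases and the match in capitals.
SYN1: ccagcttCAGCACCGCGGACAGtgccttcg
A match describes these letters only, and its absence says nothing about a factor.

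UCHL1 and NEFM were called higher with 4 compounds each; both were below the filter in vehicle, so their values describe genes admitted by the treated libraries. UCHL1, a ubiquitin hydrolase abundant in neurons (ENSG00000154277, hg38 chr4:41256413-41268455, plus strand), read 0.407, 0.881 and 0.606 CPM in the 3 vehicle libraries. It read 12.4, 21.1 and 14.5 CPM with CPI-0209, 10.5, 6.22 and 9.76 with Valemetostat, 5.38, 7.09 and 6.71 with MAK683, and 4.31, 4.25 and 3.69 CPM with PF-06821497. Every library of these 4 groups lay above every vehicle library, and the order of the 4 group means followed the order just given, although the Valemetostat and MAK683 libraries overlapped. Tazemetostat libraries read 1.44, 0.886 and 1.21 CPM and CPI-1205 libraries 0.863, 1.03 and 1.25 CPM, so that tazemetostat lay just above the vehicle range and CPI-1205 library 1 within it. In edgeR the UCHL1 difference was 4.64 ± 0.29 (SE; adjusted p = 7.69e-10) with CPI-0209, 3.79 (1.57e-08) with Valemetostat, 3.32 (1.49e-07) with MAK683 and 2.67 (7e-06) with PF-06821497. Estimates of 0.88 with tazemetostat (adjusted p = 1) and 0.72 with CPI-1205 (adjusted p = 0.379) did not pass. An antisense transcript, UCHL1-AS1, overlaps 135 exonic bases (5.92%) and was listed at no more than 0.0551 CPM.

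NEFM, the medium neurofilament subunit (hg38 chromosome 8, 24913012 to 24919098, plus strand), was the only tested neurofilament gene. Its vehicle libraries read 0.498, 0.504 and 0.373 CPM, against 9.25, 14.7 and 12.9 with CPI-0209, 6.21, 6.86 and 8.99 with Valemetostat and 4.08, 4.11 and 4.88 with MAK683. The PF-06821497 libraries read 4.83, 2.19 and 2.06 CPM, with library 1 the highest. Libraries are numbered by title, and the count columns of PF-06821497 carry other numbers than the titles of their samples. By title, PF-06821497 library 1 and CPI-1205 libraries 2 and 3 carry a resubmission mark. The count columns put the PF-06821497 mark on library 2 instead, and which is right was not settled. Fits below with a resubmission term or without resubmitted libraries followed the titles. None of these 12 libraries overlapped the vehicle range, while tazemetostat (0.999, 0.483 and 0.561) and CPI-1205 (0.318, 1.36 and 0.582) did. The edgeR differences were 4.72 ± 0.41 (SE; adjusted p = 2.23e-08), 3.98, 3.23 and 2.69 (adjusted p = 0.000304) for the 4 compounds in that order. An antisense gene, AF106564.1, covers 1706 bases (38.9%) of the NEFM exons. Since strand use in the counting is not given in the sources used here, reads of the pair cannot be told apart by strand. The antisense gene was listed at no more than 0.196 CPM. How reads in shared bases were assigned is not given either, so that level does not show its part. The light subunit NEFL had 0 counts in vehicle and 17 with CPI-0209 (9, 5 and 3 by library). The ratio was 8.34 when the vehicle group is set to a floor of 3 counts. With Valemetostat NEFL had 6 counts (1, 0 and 5 by library), a ratio of 2.25 on the same floor, and the libraries overlapped vehicle. Neither ratio allows for counting error in the treated libraries. NEFH and INA had 73 and 4 counts in all.

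**Figure D4:**
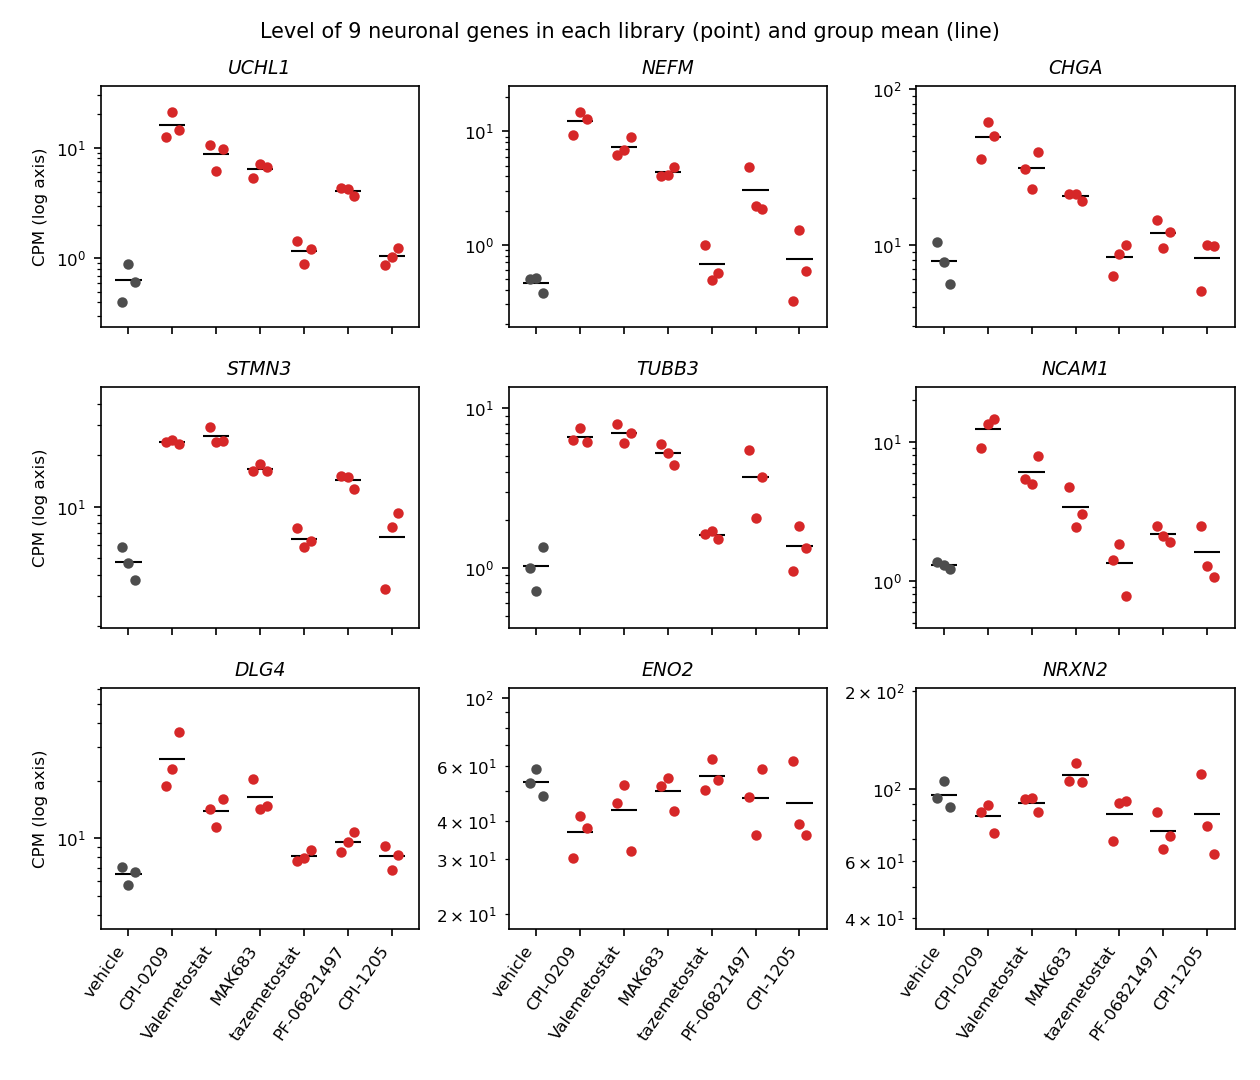
CPM (y axis, log scale) of UCHL1, NEFM, CHGA, STMN3, TUBB3, NCAM1, DLG4, ENO2 and NRXN2 in each of the 21 libraries, by group (x axis), with 1 point per library and a line at the group mean. UCHL1 runs from 0.407 to 0.881 CPM in vehicle and from 12.4 to 21.1 CPM with CPI-0209, whereas NRXN2 runs from 87.9 to 106 and from 72.9 to 89.2 CPM.

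Granins, the acidic proteins of dense-core granules, were called higher with CPI-0209 in 5 of 5 tested members (CHGA, CHGB, SCG2, SCG5 and VGF). SCG3 was untested, and 22.3% of all genes were called higher. CHGB, SCG2 and SCG5 were tested only through treated libraries, so the count is not support for a direction. CHGA (chr14:92923080-92935293, plus strand), whose upstream bases are printed above, read 10.4, 7.76 and 5.59 CPM in vehicle and 35.5, 61.1 and 50.1 CPM with CPI-0209. Valemetostat libraries read 30.8, 22.9 and 39.6, MAK683 libraries 21.3, 21.2 and 19.1, and PF-06821497 libraries 14.4, 9.5 and 12 CPM. The first 3 groups lay wholly above vehicle, and PF-06821497 overlapped it. CHGA differed by 2.62 ± 0.28 (SE; edgeR adjusted p = 2.61e-07) with CPI-0209, 1.97 with Valemetostat and 1.37 with MAK683, and by 0.59 with PF-06821497 (adjusted p = 0.193, not called). CHGB and SCG2 were low in vehicle, at 0.120 ± 0.0312 and 0.268 ± 0.121 CPM (SD, n = 3), and averaged 1.49 ± 0.274 and 1.02 ± 0.156 CPM with CPI-0209. The CHGB calls with MAK683 (1.89) and PF-06821497 (2.22) ended without vehicle library 2, the first also without vehicle library 1 or 3 or MAK683 library 3 and the second without PF-06821497 library 1. The SCG2 call with MAK683 (1.48) ended without vehicle library 2 or 3 or MAK683 library 1 or 2. In limma-voom the CHGB and SCG2 calls with MAK683 both ended. That of SCG2 also ended with a term for resubmitted libraries or without those libraries. Both genes passed edgeR in 4 of the 6 comparisons, SCG2 with its highest estimate in PF-06821497 tumours (2.54) and not with CPI-0209 (1.93). VGF, a neurotrophin-induced granin, rose by 0.56 with CPI-0209 (edgeR adjusted p = 0.022). That call was lost without vehicle library 3, without CPI-0209 library 2 or with no low-count filter. SCG5, a chaperone of prohormone convertase, rose by 1.81 with CPI-0209 and 1.55 with Valemetostat, where its call was lost without vehicle library 3 or Valemetostat library 3.

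Microtubule genes rose with CPI-0209 in 5 of 6 tested members (STMN2, STMN3, TUBB3, TUBB2B and MAPT), and MAP2 fell. Of all genes, 22.3% were called higher and 18.8% lower. STMN2 and MAPT were tested only through treated libraries, so a count that includes them is not support for a direction. STMN3, a stathmin that binds tubulin dimers (chr20:63639705-63657682, minus strand), read 5.84, 4.66 and 3.73 CPM in vehicle and 23.8, 24.4 and 23.4 CPM with CPI-0209. With Valemetostat it read 29.4, 24.0 and 24.2 CPM, with MAK683 16.1, 17.7 and 16.1, and with PF-06821497 15.2, 14.9 and 12.7 CPM, with no overlap with vehicle in any of the 4 groups. Differences in edgeR were 2.33 ± 0.24 (SE; adjusted p = 1.41e-07), 2.45 (adjusted p = 1.82e-07), 1.81 (1.36e-05) and 1.59 (0.000172). TUBB3, the tubulin isotype used to identify neurons (chr16:89921392-89938761, plus strand), read 0.996, 0.713 and 1.35 CPM in vehicle and 6.30, 7.53 and 6.12 CPM with CPI-0209. Its differences were 2.71 (edgeR adjusted p = 4.73e-07), 2.78, 2.36 and 1.87 for the same 4 compounds. A same-strand gene, AC092143.1, shares 1584 exonic bases (35.8%) with TUBB3 and was listed at no more than 0.0618 CPM. Its part in the shared bases cannot be read from that level, since how such reads were assigned is not given. STMN2, a stathmin of growing axons, rose by 3.10 with CPI-0209 and 2.21 with Valemetostat from 0.103 ± 0.0197 CPM in vehicle (SD, n = 3).

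MAP2, a dendritic microtubule-associated protein, went the other way. It read 8.83, 11.1 and 10.2 CPM in vehicle and 7.75, 6.21 and 4.40 CPM with CPI-0209, with no overlap, and differed by -0.70 (edgeR adjusted p = 0.0328). Library 3 of CPI-0209 was the lowest, and the call was lost without it and also without CPI-0209 library 2, vehicle library 2 or vehicle library 3. Upper-quartile scaling or a filter of 1 CPM in 3 libraries ended the MAP2 call as well. MAPT, which encodes tau, rose by 1.14 with CPI-0209 (edgeR adjusted p = 0.0369). Its call was lost when library 1 or 3 of CPI-0209, or library 1 or 2 of vehicle, was left out. The MAPT call was also lost with no low-count filter, with the level of muscle markers as a covariate and with only the compared groups fitted. TUBB2B rose by 0.94 (edgeR adjusted p = 0.0115), a call lost without vehicle library 3, and shares 174 exonic bases (7.93%) with PSMG4, a gene at 19.0 CPM. STMN4 and DCX were not tested. STMN4 counts gave a ratio to vehicle of 13.2 with CPI-0209 (95% counting interval 1.83 to 580), from 1 vehicle count.

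Of the synaptic vesicle and release genes, 3 of 8 tested members rose with CPI-0209 (SNAP25, SYN1 and SYN2) and 2 with Valemetostat (SNAP25 and SYN2). With PF-06821497 1 rose (SNAP25), and with MAK683 0. Shares of all genes called higher were 22.3%, 15.0%, 5.96% and 10.4% in that order. SNAP25, SYN1 and SYN2 were tested only through treated libraries, so these counts are not support for a direction. These genes were low in vehicle, SNAP25, a SNARE protein, at 0.3 ± 0.122 CPM, SYN1 at 0.179 ± 0.0495 and SYN2 at 0.0855 ± 0.110 CPM (SD, n = 3); synapsins tether vesicles to the cytoskeleton. SYN2 rose by 2.78 with CPI-0209 (edgeR adjusted p = 0.00458), with libraries at 0.613, 0.287 and 1.15 CPM above vehicle libraries at 0, 0.210 and 0.0466 CPM. SNAP25 rose by 1.23 (edgeR adjusted p = 0.0478) and SYN1 by 1.75 (0.0293), and both lost their calls without CPI-0209 library 3, SNAP25 also when CPI-0209 library 1 was left out, or library 2 or 3 of vehicle, and SYN1 also without vehicle library 1 or 2. The SNAP25 call was also lost with either replicate block, in limma-voom, with no low-count filter and with the muscle covariate, and the SYN1 call with the muscle covariate. With Valemetostat the calls of SNAP25 (1.48) and SYN2 (2.62) ended without Valemetostat library 3, and with PF-06821497 that of SNAP25 (1.72) ended without PF-06821497 library 2 or vehicle library 2 or 3. SYT1 read 11.7, 13.2 and 9.04 CPM in vehicle and 10.3, 9.08 and 9.56 CPM with CPI-0209, within the vehicle range, and differed by -0.23 (edgeR adjusted p = 0.287). The vesicle membrane protein SYP differed by -0.14, the vesicle GTPase RAB3A by -0.48, and the active zone scaffolds PCLO and BSN by -0.31 and -0.33, none called. PCLO libraries at 10.8, 9.31 and 9.27 CPM lay below vehicle libraries at 12.8, 12.4 and 11.3 CPM all the same. RAB3A shares 165 exonic bases (9.08%) with MPV17L2. CPLX2, untested, gave a count ratio of 11.8 with CPI-0209 (95% counting interval 1.58 to 522).

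Of 5 tested adhesion molecules, NCAM1, CNTNAP2 and NLGN1 were called higher with CPI-0209, beside 22.3% of all genes. CNTNAP2 and NLGN1 were tested only through treated libraries, so a count that includes them is not support for a direction. NCAM1, a homophilic adhesion molecule of neurons that skeletal muscle and natural killer cells also express (chr11:112961247-113278436, plus strand), read 1.36, 1.3 and 1.21 CPM in vehicle and 9.03, 13.6 and 14.6 CPM with CPI-0209. It read 5.37, 4.99 and 7.89 CPM with Valemetostat and 4.76, 2.45 and 3.05 CPM with MAK683, and these 3 groups lay above vehicle without overlap. NCAM1 differed by 3.25 ± 0.33 (SE; edgeR adjusted p = 1.32e-07), 2.23 and 1.39 (adjusted p = 0.00609), and was not called with PF-06821497 (0.74, adjusted p = 0.197). CNTNAP2, a neurexin-family protein of myelinated axons, rose by 3.65, 2.86 and 2.19 with the same 3 compounds, from 0.178 ± 0.120 CPM in vehicle (SD, n = 3). The MAK683 call of CNTNAP2 was lost without MAK683 library 1. NLGN1, the postsynaptic partner of neurexins, rose by 2.19 with CPI-0209 (edgeR adjusted p = 0.00989) and lost its call without CPI-0209 library 3. The abundant NRXN2 and L1CAM were not called, at -0.22 (adjusted p = 0.297) and -0.39 (0.181) with CPI-0209 in edgeR. L1CAM libraries at 33.6, 48.8 and 40.4 CPM lay below vehicle libraries at 55.2, 55.6 and 49.9 CPM. CNTN1, untested, stood at 0.326 ± 0.0422 CPM in vehicle and 0.182 ± 0.133 with CPI-0209 (SD, n = 3).

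GAD1 and DLG4 rose with 3 compounds each. GAD1, which makes the inhibitory transmitter GABA, read 0.0905, 0 and 0.233 CPM in vehicle and 1.00, 1.44 and 1.53 CPM with CPI-0209, and rose by 3.57 ± 0.69 (SE; edgeR adjusted p = 0.000279), 3.02 with Valemetostat and 2.48 with MAK683. The MAK683 call of GAD1 ended without MAK683 library 1 or 3 or vehicle library 1 or 2. DLG4, the postsynaptic scaffold PSD-95 (chr17:7189890-7219702, minus strand), read 7.11, 5.75 and 6.66 CPM in vehicle, 18.8, 22.9 and 35.7 with CPI-0209, 14.2, 11.5 and 16 with Valemetostat and 20.3, 14.2 and 14.7 CPM with MAK683. All 9 treated libraries lay above vehicle, and the differences were 1.98 ± 0.21 (SE; edgeR adjusted p = 1.92e-07), 1.10 and 1.33. DLG4 shares 49 exonic bases with ACADVL. ELAVL4, an RNA-binding protein of postmitotic neurons, had 1 count in the vehicle group, and its count ratio to vehicle was 57.4 with CPI-0209 (95% counting interval 9.71 to 2324), 18.0 with Valemetostat (2.80 to 756), 17.3 with MAK683 (2.63 to 730), 12.9 with tazemetostat (1.97 to 546), 11.4 with PF-06821497 (1.65 to 489) and 1.96 with CPI-1205 (0.102 to 116). Intervals cover counting error only. ELAVL4 was called with the first 3 and with PF-06821497 (edgeR adjusted p = 0.0447, a call lost without vehicle library 1 or 2 or any 1 of the PF-06821497 libraries, with either replicate block, with a term for resubmitted libraries or without those libraries, and with no low-count filter), and not with tazemetostat (estimate 3.24, unadjusted p = 0.002, adjusted p = 1). ELAVL3 rose by 2.60 with CPI-0209 (edgeR adjusted p = 0.0302), but 1 treated library, at 0.115 CPM, lay within the vehicle range of 0.042 to 0.136 CPM. The ELAVL3 call was lost when library 1 or 3 of CPI-0209, or library 2 or 3 of vehicle, was left out. It was also lost in limma-voom and with the muscle covariate.

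ENO2, the neuron-specific isoform of enolase and the member with the highest level per kilobase, fell with CPI-0209. It read 53.0, 58.6 and 47.9 CPM in vehicle (chr12:6913745-6923698, plus strand) and 30.4, 41.5 and 38 CPM with CPI-0209, a difference of -0.54 (edgeR adjusted p = 0.0441) with no overlap. The call was lost without any 1 of the 3 vehicle libraries and without CPI-0209 library 1 or 3. It was also lost under RLE or upper-quartile scaling and in DESeq2. The replicate block by title number, the muscle covariate or a filter of 1 CPM in 3 libraries ended it as well. GAP43, a growth cone protein of the same role, was untested and averaged 0.0586 ± 0.0219 CPM in vehicle and 0.481 ± 0.251 CPM with CPI-0209 (SD, n = 3).

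Without CPI-0209 library 3, 17 members rose with CPI-0209 and 0 fell; the calls that ended were those of SNAP25, MAPT, SYN1, ELAVL3, NLGN1, ENO2 and MAP2. Skeletal muscle genes were highest in that library: the median log2 CPM of 18 muscle markers was 4.01, 3.18 and 6.11 in the 3 CPI-0209 libraries and 2.47, -2.19 and 3.11 in vehicle, so all 3 lay above vehicle, and edgeR called 9 of the 18 higher and 1 lower. Their summed level ran from 617 to 681 CPM in vehicle and from 456 to 2119 CPM with CPI-0209. With the muscle level as a covariate 18 members rose and 1 fell with CPI-0209. The calls that ended under it were those of SNAP25, MAPT, SYN1, ELAVL3 and ENO2. Of 14 Schwann cell and glial markers, the summed level was 403 to 427 CPM in vehicle and 276 to 300 CPM with CPI-0209. The lineage factor SOX10 was at 0 counts in all 21 libraries, and S100B was at or near 0. Of 10 tested, edgeR called 2 higher and 4 lower with CPI-0209, beside 22.3% and 18.8% of all genes. Among them PMP2 rose by 1.32 (a call lost without CPI-0209 library 1), while MBP (-0.96) and ERBB3 (-0.62) fell. Endothelial markers summed to 14.2 to 17.1 CPM in vehicle and 44.0 to 57.6 CPM with CPI-0209, fibroblast markers to 1273 to 2045 and 1731 to 4405 CPM, and leukocyte markers to 156 to 186 and 175 to 209 CPM. Of the tested markers, edgeR called higher with CPI-0209 5 of 9 endothelial, 7 of 10 leukocyte and 6 of 10 fibroblast genes. In the same order 2, 1 and 2 were called lower, beside 22.3% higher and 18.8% lower of all genes. The corresponding higher counts were 4, 6 and 4 with Valemetostat, 3, 3 and 3 with MAK683, and 1, 2 and 2 with PF-06821497. Lower calls numbered 2, 1 and 2, then 1, 0 and 2, and then 1, 0 and 1 with these 3 compounds. Of all genes, 15.0%, 10.4% and 5.96% were called higher and 12.2%, 5.17% and 3.59% lower. Muscle markers called higher with these 3 compounds numbered 0. Urothelial and squamous markers, the check on the labelled tumour, were present at 22690 to 23638 CPM in vehicle and 14471 to 17266 CPM with CPI-0209. Of these 12 markers edgeR called 1 higher and 5 lower with CPI-0209, beside 22.3% and 18.8% of all genes. The human tumours grew in mice, and how mouse reads were handled is not given. Levels of the muscle, glial, endothelial, fibroblast and leukocyte markers may thus hold mouse reads or transcripts of the tumour cells, which cannot be told apart here. Apart from the muscle covariate, the part of these cell types in the neuronal gene results was not tested.

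The compounds were compared with each other at the matched dose and time. An overall edgeR test among the 6 compounds called 20 of 31 members (64.5%), beside 32.3% of all genes. The 11 not called were SYT1, SYP, RAB3A, PCLO, BSN, SNAP25, NRXN2, NLGN1, L1CAM, ELAVL3 and ENO2. The 31 hold the 15 members admitted by treated libraries, so this share is not compared with that of all genes. That limit also covers the tallies that follow and the counts of members between pairs. The 7 members UCHL1, NEFM, STMN3, TUBB3, ELAVL4, CHGB and SCG2 were called against vehicle with 4 compounds. CPI-0209 had the largest estimate in 18 of 31 members, and the smallest was in tazemetostat for 11 and in CPI-1205 for 11. No share of all genes was computed for calls with 4 compounds or for these orders. Whether the tallies are unusual for a gene of the table is therefore not known. In all, 7 pairs of compounds were then compared, with p-values adjusted over genes within each pair.

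Between Valemetostat and CPI-0209 no member passed edgeR, nor did any of the 21958 genes (0%). At an unadjusted p under 0.05, 6 of 31 members and 12.3% of genes were reached. DESeq2 called 3 members lower with Valemetostat and limma-voom 0, and 3 were called in edgeR without CPI-0209 library 1 and 1 without Valemetostat library 3. The share of all genes called in those alternative fits is not given here, and the 0% above is not their background. Estimates ran from -1.69 (ELAVL4) to 0.49 (SCG2), with 95% intervals between -2.77 and 1.36. UCHL1 differed by -0.86 (95% interval -1.35 to -0.37, adjusted p = 0.1), NCAM1 by -1.03 (-1.65 to -0.40, adjusted p = 0.115) and DLG4 by -0.88 (-1.31 to -0.46, adjusted p = 0.085), intervals that lie below 0 although the adjusted edgeR test was not passed. TUBB3 differed by 0.08 (-0.49 to 0.64) and STMN3 by 0.12 (-0.35 to 0.58).

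MAK683, the EED binder, differed from CPI-0209 in 10 of 31 members. Of these 9 were lower, beside 5.05% of all genes, and 1, MAP2, was higher by 0.92, beside 4.03% of all genes. UCHL1 differed by -1.32 ± 0.23 (SE; edgeR adjusted p = 0.0016), NCAM1 differed by -1.86 (0.00095), NEFM by -1.49 (0.00745) and CHGA by -1.25 (0.00558). The count of lower members was 4 without MAK683 library 2 and 5 without MAK683 library 3 or CPI-0209 library 3, and MAP2 was no longer called without library 2 or 3 of either group. Against tazemetostat, MAK683 was higher in 8 of 31 members (7.05% of all genes) and lower in 0 (2.15%), with UCHL1 at 2.44 and NEFM at 2.66. Valemetostat was higher than tazemetostat in 14 of 31 members (11.6% of all genes) and lower in 0 (8.69%), with UCHL1 at 2.90 and NEFM at 3.41.

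Tazemetostat was lower than CPI-0209 in 18 of 31 members (20.3% of all genes) and higher in 2 of 31 (16.7% of all genes). UCHL1 differed by -3.76 (edgeR adjusted p = 6.97e-09), NEFM by -4.16, NCAM1 by -3.19 and CHGA by -2.55, while ENO2 (0.61) and MAP2 (0.90) were higher, with 1 of the 2 called without CPI-0209 library 1 or 3 or tazemetostat library 2 and up to 3 without another library. CPI-1205 was lower than CPI-0209 in 17 of 31 members (19.9% of all genes), among them ELAVL4 at -4.65, GAD1 at -4.05 and UCHL1 at -3.93. It was higher in 2 of 31 (15.3% of all genes), MAP2 at 0.74 and PCLO at 0.46. With CPI-0209 library 2 or 3 left out neither was called, and 1 was called without any 1 of the CPI-1205 libraries. PF-06821497 was lower than CPI-0209 in 14 of 31 members (13.9% of all genes), with UCHL1 at -1.97 and NCAM1 at -2.52. It was higher in 2 of 31 (8.66% of all genes), MAP2 at 0.86 and PCLO at 0.60. The 14 became 9 without PF-06821497 library 3, and the 2 became 1 without PF-06821497 library 1 or CPI-0209 library 3. Against vehicle, the 8 members that rose with PF-06821497 became 5 without vehicle library 2.

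A second list of 107 neuronal genes that are not among the 40 was measured in the same way, and 85 were tested. It held presynaptic, postsynaptic, transmitter, cytoskeletal, adhesion, granule and RNA-binding genes, and was likewise chosen with earlier results of these data known. Of the 85, 47 reached the filter in vehicle alone and 38 entered through treated libraries. With CPI-0209, 50 were called higher and 6 lower (22.3% and 18.8% of all genes), with Valemetostat 35 and 1 (15.0% and 12.2%), with MAK683 28 and 0 (10.4% and 5.17%) and with PF-06821497 15 and 0 (5.96% and 3.59%). In tazemetostat and CPI-1205 tumours edgeR called 0, with 6 and 7 of 85 at an unadjusted p under 0.05 (2.95% and 12.4% of all genes). Among the 47, 18 rose and 6 fell with CPI-0209 (38.3% and 12.8%, beside 14.9% and 23.9% of the 16981 genes that reached the filter in vehicle), 15 rose with Valemetostat (31.9%, beside 10.8%), 15 with MAK683 (31.9%, beside 7.53%) and 8 with PF-06821497 (17.0%, beside 5.09%). Their median differences were 0.33, 0.24, 0.41 and 0.23, beside -0.12, -0.08, -0.06 and -0.04. SHANK3, a scaffold of excitatory synapses beside DLG4, went from 2.22 ± 0.179 CPM in vehicle to 26.5 ± 4.22 CPM with CPI-0209 (SD, n = 3) and rose in edgeR with 4 compounds. UNC13A, which primes vesicles for release, rose by 4.55 with CPI-0209, 3.38 with Valemetostat, 2.71 with MAK683 and 1.76 with PF-06821497. The pentraxin receptor NPTXR rose by 3.44 with CPI-0209, and the postsynaptic scaffold HOMER2 by 2.11, and both also rose with Valemetostat and MAK683.

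REST and its partners were read beside the neuronal genes. REST stood at 39.1 ± 0.853 CPM in vehicle and 32.4 ± 3.74 CPM with CPI-0209 (SD, n = 3), a difference of -0.27 ± 0.16 (SE; edgeR adjusted p = 0.192), and was not called with any of the 6 compounds. Of 14 genes listed as REST and its corepressors, 0 rose and 5 fell with CPI-0209 (background lower 18.8%): RCOR1 (-0.51), SIN3A (-0.47), RCOR3 (-0.36), SIN3B (-0.33) and HMG20B (-0.33). The RCOR3 call ended when any 1 of the vehicle libraries was left out, or library 1 or 2 of CPI-0209, and that of SIN3B without vehicle library 3. SIN3A and SIN3B also fell with Valemetostat and PF-06821497, 4 calls that each ended without vehicle library 3, and with MAK683 RCOR2 rose by 1.03 (edgeR adjusted p = 0.0111). Of 22 proneural and neuroendocrine transcription factors, only 8 reached the test, 4 of them through treated libraries. With CPI-0209 edgeR called 4 of the 8 higher (22.3% of all genes): MYT1L (0.84) and POU4F1 (0.72), which reached the filter in vehicle, and PROX1 (3.32) and ST18 (1.75), which did not. The other 4 were not called. Among PRC2 subunits with CPI-0209, EED rose by 0.56 (edgeR adjusted p = 0.00153) and EZH2 by 0.27 (0.0362, lost when library 1 or 2 of vehicle, or library 3 of CPI-0209, was left out), EZH1 fell by 0.38 (0.00862), and SUZ12 was not called at -0.14.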

How the data were processed

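The deposited tables hold the authors' raw read counts per gene. Tools listed without a role are STAR 2.7.3a and RSEM 1.3.1, with build hg38, per the submitters' processing notes. Not given in the sources used here are which program made these counts, its use of strand, the annotation release and how mouse reads were handled. Symbols came from GENCODE 29, matching 56898 of 57500 identifiers. The members and lists were chosen with earlier results of these data known.

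Counts of the 21 libraries (7 groups of 3) were filtered by group, scaled by TMM (factors 0.946 to 1.08) and fitted together in edgeR 4.0.16 (R 4.3.3, quasi-likelihood, robust, 14 residual degrees of freedom, common biological coefficient of variation 0.163). Each p was adjusted by Benjamini-Hochberg over 21958 genes, and 95% intervals of pair differences used the t distribution. DESeq2 1.42.0 and limma 3.58.1 (voom), other scalings and filters, blocks and left-out libraries were alternatives. The script was tested on simulated counts. Depth of 9725690 to 25771778 counts sets the precision. Exact intervals on count ratios cover counting error only.

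Full statistics went to tested members with at least 1 CPM in any group, up to 4 a role by joint p, and of other lists up to 4 genes by joint p plus REST, EZH2, EED and SUZ12. Genes outside this rule were named after their values were seen, since a small count covered them or, for CHGB, SCG2, MAPT and other low members, to account for each. Some genes of the other lists are not reported here.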

Additional observations from a re-analysis of the deposited data

How the results depend on the processing

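In the following, members are the 31 tested neuronal genes and further genes the second neuronal list, and counts are of called genes in edgeR against vehicle unless another pair is named. Settings that left a count within 1.5 times are not listed, and no direction reversed. The share of all genes called under each setting is not given, so these counts have no background beside them. Members falling with CPI-0209 numbered 1 under RLE scaling, DESeq2, the block by title number or the muscle covariate, and 0 under upper-quartile scaling, a filter of 1 CPM in 3 libraries, or a test against a 1.5-fold change. Further genes falling with CPI-0209 numbered 3 under upper-quartile scaling and 0 in the 1.5-fold test. Further genes falling with Valemetostat numbered 0 under RLE or upper-quartile scaling, no filter, the 1 CPM filter, the 1.5-fold test or with resubmitted libraries omitted, and 2 with a resubmission term or the muscle covariate. Without a filter, 1 member fell with Valemetostat, 2 with MAK683 and 1 with PF-06821497, 4 were lower with Valemetostat than CPI-0209, 3 higher with MAK683 than CPI-0209 and 1 lower with MAK683 than tazemetostat. DESeq2 gave 1 further gene falling with PF-06821497 and 3 members lower with Valemetostat than CPI-0209. Members higher than CPI-0209 numbered 1 for tazemetostat under upper-quartile scaling or the 1 CPM filter, and 1 for CPI-1205 under upper-quartile scaling or voom.

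In the 1.5-fold test, further genes rising numbered 23 with Valemetostat, 16 with MAK683 and 5 with PF-06821497, members rising with PF-06821497 numbered 5, members higher than CPI-0209 numbered 0 for MAK683, tazemetostat, PF-06821497 and CPI-1205, members lower than CPI-0209 numbered 2 for MAK683 and 8 for PF-06821497, and members higher than tazemetostat numbered 8 for Valemetostat and 4 for MAK683. Fitting only the compared groups gave 1 member falling with Valemetostat, MAK683 and PF-06821497 each, 1 further gene falling with MAK683, 1 and 0 members higher than CPI-0209 for PF-06821497 and CPI-1205, and 1 lower with Valemetostat than tazemetostat. With resubmitted libraries omitted, 1 member fell with Valemetostat and 2 with PF-06821497, and 2 and 5 were higher than CPI-0209 for MAK683 and CPI-1205; this leaves CPI-1205 with 1 library, assumed to vary like the other groups. The muscle covariate gave 4 members lower and 0 higher than CPI-0209 for MAK683 and CPI-1205 respectively.

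Leaving out 1 library at a time gave 17 to 21 members rising and 0 to 1 falling with CPI-0209, 13 to 16 rising with Valemetostat, 9 to 11 with MAK683 and 5 to 7 with PF-06821497, and 15 to 20 differing among compounds. Against CPI-0209, 0 to 3 members were lower with Valemetostat, 0 to 1 higher and 4 to 6 lower with MAK683, 1 to 3 higher with tazemetostat, 1 to 2 higher and 9 to 13 lower with PF-06821497, and 0 to 2 higher with CPI-1205. Further genes rising numbered 42 to 51 with CPI-0209, 20 to 24 with MAK683 and 10 to 18 with PF-06821497; those falling numbered 3 to 7 with CPI-0209, 0 to 2 with Valemetostat and 0 to 1 with MAK683 and PF-06821497 each. Except where fewer genes or libraries entered, the cause was not tested.

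Most pairs of libraries with the same replicate number did not deviate together, so the numbers were not taken as pairs (median correlation -0.0517, -0.00396 and -0.0666 for numbers 1 to 3 of the titles, over 0.1 in 4, 6 and 5 of 21 pairs). By the count columns' numbers the medians were -0.0517, -0.00396 and 0.0564, over 0.1 in 5, 4 and 8 of 21. With the replicate number of the titles as a block, 21, 17, 12, 0, 7 and 0 members rose with CPI-0209, Valemetostat and MAK683 and then with tazemetostat, PF-06821497 and CPI-1205, and 19 differed among compounds; with the count columns' numbers, 21, 16, 12, 0, 7 and 0 rose and 18 differed. Upper-quartile scaling moved the share of higher calls with CPI-0209 over all genes from 54.2% to 67.5%, with the median of all genes at 0.12.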

Other observations

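UCHL1 was used to look for genes with a like pattern, by Pearson correlation of log2 CPM over the 7 group means. The 5 genes most like it were PREX1 (0.999), HAPLN3 (0.998), MSLN (0.998), MMP13 (0.998) and APOBEC3G (0.997). None of these is a neuronal marker on either list, the group means share libraries and scaling, and the correlations are descriptions over 7 points.

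Summed over the 40 genes, libraries held 324 to 400 CPM with CPI-0209, 323 to 340 with Valemetostat, 308 to 346 with MAK683, 242 to 284 with tazemetostat, 234 to 289 with PF-06821497 and 204 to 317 with CPI-1205, beside 253 to 298 CPM in vehicle. Adipocyte markers summed to 5.08 to 6.11 CPM in vehicle and 38 to 44.3 CPM with CPI-0209.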
